A study of Mus musculus with 18 samples.

Results

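Genes for the secretory proteins of the seminal vesicle were measured in mouse prostate RNA. The set holds 8 genes of the 55469 in the tables, namely Svs2, Svs3a, Svs3b, Svs4, Svs5, Svs6, Pate4 and Akr1b7. They were selected by symbol, with their measured levels in these libraries in view. Their levels and differences in level between groups are therefore given as a description without a test. P-values are given only for ratios between the genes, and nothing is read from these. The question put to the 8 genes was whether they keep a fixed ratio to each other from library to library, as transcripts from 1 tissue of constant composition would.

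Total RNA of the prostate, from its ventral and lateral lobes, was sequenced in male mice on a C56NL/6N background, with 3 mice in each of 6 groups. WT mice carried normal Elac2, the gene for the enzyme that cuts the 3′ ends of tRNA precursors. KO mice had lost exon 8 of Elac2 through a Cre driven by the probasin promoter (Pb-Cre), which acts in prostate epithelium, and A537T mice carried the Ala537Thr substitution on both alleles in every tissue. Mice were littermate-matched and were examined at 10 and at 30 weeks of age. The labels state that the seminal vesicles were taken off before the lobes were separated. Libraries are named by their column labels, which give no genotype or age, and were assigned to groups as described under processing. At 10 weeks 10AF, 11AF and 12AF were assigned to WT, 13AF to 15AF to KO and 16AF to 18AF to A537T. At 30 weeks 1AF to 3AF were assigned to WT, 4AF to 6AF to KO and 7AF to 9AF to A537T.

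The seminal vesicle is an androgen-dependent gland that makes most of the fluid of the mouse ejaculate. Its most abundant proteins are small, rapidly evolving secreted proteins, several of which are cross-linked by the prostate transglutaminase Tgm4 into the copulatory plug. Svs2 is a semenogelin-like protein and a main substrate of that reaction, Svs3a and Svs3b are further plug proteins, and Svs4, Svs5 and Svs6 are small secreted proteins of the same gene cluster. Pate4, also called seminal vesicle secretory protein VII, belongs to the Ly6 and PATE family and binds sperm. Akr1b7 is of another kind: it is an aldo-keto reductase best known from the vas deferens and the adrenal cortex, and it is not one of the plug proteins.

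The 6 Svs genes lie within one cluster on chromosome 2 (GRCm38), from Svs2 at chr2:164235929-164238466 to Svs5 at chr2:164332740-164334396. Pate4 lies at chr9:35607093-35611941 and Akr1b7 at chr6:34412334-34423142. The longest annotated transcripts of Svs3a and Svs3b are identical at 88.9% of positions and share 31.9% of the 75-base words of Svs3a, so reads can be split between them and their separate levels are uncertain. No 75-base word was shared in the other 27 pairs. Svs5 and Svs6 transcripts were identical at 56.7% of positions.

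Promoter sequence is shown for 2 pairs of genes of this cluster, because these pairs have near-identical promoters and differ in how closely their levels followed each other. The 100 bases before the RefSeq start (GRCm38.p6) are given 5′ to 3′ on the strand of the gene, with the motifs TATAAA and GATAA in capitals. The windows are chr2:164289167-164289266 for Svs3a, chr2:164256644-164256743 for Svs3b (minus strand), chr2:164332665-164332764 for Svs5 and chr2:164316651-164316750 for Svs6.
Svs3a: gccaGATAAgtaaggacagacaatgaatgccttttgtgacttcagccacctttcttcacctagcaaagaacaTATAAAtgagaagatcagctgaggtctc
Svs3b: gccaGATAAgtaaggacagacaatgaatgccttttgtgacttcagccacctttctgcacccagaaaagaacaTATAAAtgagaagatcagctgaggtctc
Svs5: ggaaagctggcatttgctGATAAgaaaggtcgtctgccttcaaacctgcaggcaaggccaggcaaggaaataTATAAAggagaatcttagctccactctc
Svs6: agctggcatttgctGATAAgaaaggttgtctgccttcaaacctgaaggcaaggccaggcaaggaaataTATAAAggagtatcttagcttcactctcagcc

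These windows were identical at 97.0% of positions between Svs3a and Svs3b and at 92.0% between Svs5 and Svs6. The motifs were chosen after the promoters had been read. Over both strands, GATAA stood in the 100-base window of 7 of the 7 members with a RefSeq promoter and in 8.65% of 27025 promoters, 1 per gene, while TATAAA stood in 5 of the 7 and in 5.95% of all. In Svs4 the GATAA lay 84 to 80 bases and in Svs2 33 to 29 bases before the RefSeq start. GENCODE places the start of these 2 genes further upstream, so that both windows lie within the annotated gene, and the windows of Svs5 and Akr1b7 run past the GENCODE start. A match describes the letters and is not a binding site.

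The 8 genes together took between 1.74% and 10.3% of all reads in 9 libraries, between 0.0375% and 0.191% in 3, and almost none in the other 6. Total reads per library ran from 6569642 to 11225281. Levels are given as RPM, the reads of a gene per 1000000 reads of its library, and, to compare genes, as RPKM, the RPM per kb of the longest annotated transcript. The 9 libraries with 178268 or more reads of the 8 genes were 10AF and 11AF of WT, the 3 KO libraries at 10 weeks, 4AF and 6AF of KO at 30 weeks and 7AF and 9AF of A537T at 30 weeks. The A537T libraries at 10 weeks held 16021, 12323 and 2917 such reads. The remaining 6 libraries held 3 to 87, and among them no gene of the set reached more than 32 reads in any library. In bulk RNA, fewer cells of a type and less RNA per cell cannot be told apart.

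**Figure D1:**
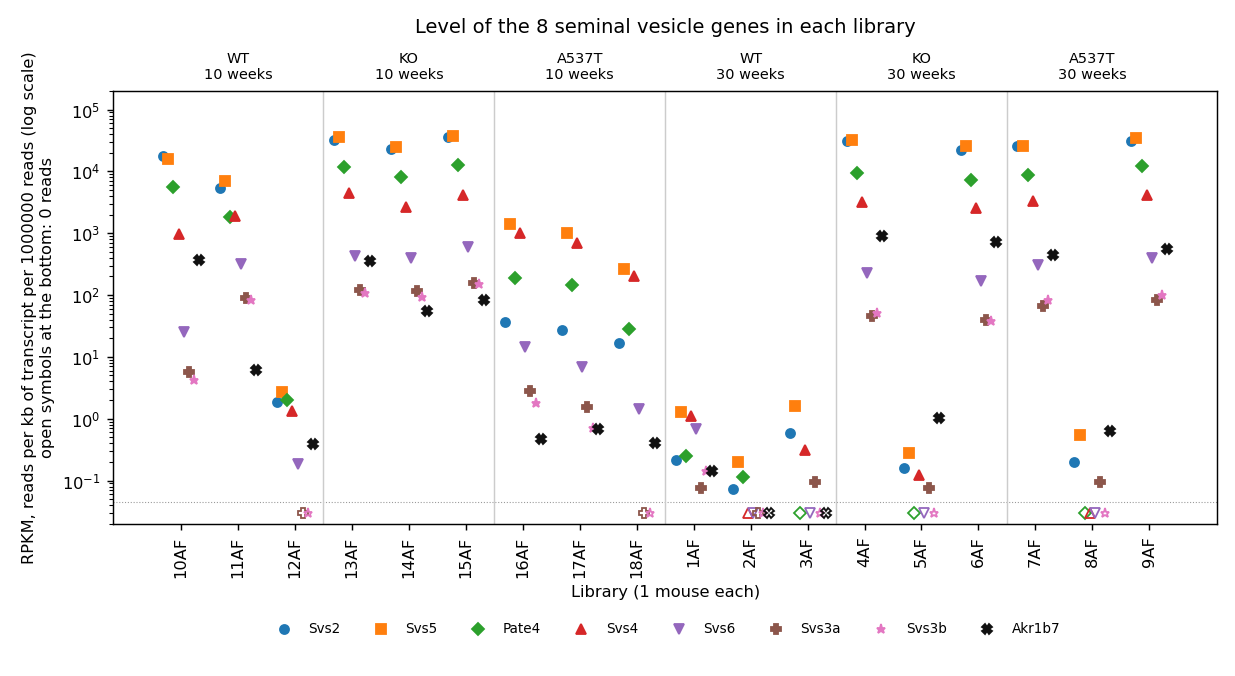
Level of each of the 8 genes in each library, as RPKM on a log axis, with 1 point per gene and library and no pooling; open symbols at the bottom mark 0 reads. Svs5, Svs2 and Pate4 lie highest in the 9 libraries with 178268 or more reads of the set, and Svs5 and Svs4 lie highest in the 3 A537T libraries at 10 weeks.

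Svs2, the semenogelin-like plug protein, had 29809, 9211 and 3.15 RPM in WT at 10 weeks and 55071, 38808 and 61691 in KO. In A537T at 10 weeks it had 62.4, 46.4 and 28.4. At 30 weeks it had 0.362, 0.123 and 1.01 in WT, 51906, 0.267 and 36914 in KO, and 43772, 0.342 and 52919 in A537T. The KO libraries at 10 weeks all lay above the WT libraries, the A537T libraries at 10 weeks lay between the lowest and the other WT libraries, and in both mutant groups at 30 weeks 2 libraries were high and 1 lay within the WT range.

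Svs4, a small androgen-regulated secreted protein, followed another order. It had 702, 1412 and 0.985 RPM in WT at 10 weeks, 3322, 1975 and 3052 in KO, and 737, 504 and 148 in A537T. The first A537T value was thus above the 702 of 10AF, although Svs2 in the same 2 libraries was at 62.4 and 29809. All 3 A537T values lay within the WT range. At 30 weeks Svs4 had at most 0.815 in WT, 2342, 0.0891 and 1840.1 in KO, and 2417, 0 and 3083 in A537T.

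Akr1b7, the aldo-keto reductase, had 465, 7.92 and 0.493 RPM in WT at 10 weeks, 460, 70.3 and 106 in KO, and 0.595, 0.878 and 0.514 in A537T. At 30 weeks it had 0.181, 0 and 0 in WT, 1167, 1.34 and 923 in KO, and 576, 0.799 and 713 in A537T. The KO libraries overlapped the WT libraries at 10 weeks because 10AF was high, and every mutant library lay above every WT library at 30 weeks. In 5AF and 8AF this rested on 15 and 7 reads.

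Per length, Svs5 stood first in 8 of the 9 libraries with high levels and Svs2 stood first in 10AF. In the KO libraries at 10 weeks Svs5 had 36528, 24423 and 37661 RPKM and Svs2 had 32490.3, 22896 and 36396, so the levels of Svs5 and Svs2 overlapped between mice. Pate4 followed with 11783, 8167 and 12632 and Svs4 with 4544, 2702 and 4175, and these did not overlap with each other or with Svs2. Svs6 was above Svs3a in all 9, and Svs3a was above Svs3b in 6 of 9, which at their shared sequence is no order. Akr1b7 was above Svs6 in 5 of the 9. In the 3 A537T libraries at 10 weeks the order was Svs5, Svs4, Pate4, Svs2.

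Against WT, all 8 genes passed the filter of a mean of at least 10 normalised counts in each comparison. In KO at 10 weeks, 7 of the 8, all but Akr1b7, had every KO library above every WT library, where 11.7% of the 15089 genes tested did. In A537T at 10 weeks this held for 0 of 8, against 5.58% of 15131 genes. At 30 weeks it held for 1 of 8, Akr1b7, in both mutants, against 7.92% of 14729 genes for KO and 9.18% of 14789 for A537T. KO and A537T were set against the same WT libraries at each age, and since the members were chosen on these levels nothing is read from the counts. By limma's moderated test, 0% of genes passed an adjusted p of 0.05 in each of the 4 comparisons, with 2930, 973, 1616 and 2016 genes at an unadjusted p under 0.05 for KO and A537T at 10 weeks and KO and A537T at 30 weeks. edgeR on recovered reads also called 0 in each, and DESeq2 called 715, 90, 285 and 476.

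The median log2 difference of the 8 genes, on the log2(normalised count + 1) scale, was 5.02 for KO against WT at 10 weeks, where the median of all genes tested was -0.01. It was 1.57 without 12AF, the WT library with 87 reads of the set, and 7.02 without 11AF. For A537T at 10 weeks the median was -1.96, with Svs2 at -4.52 (SE 3.03) and Svs4 at 1.83 (SE 2.48), and the median of all genes was 0.01. The median rested on single libraries. It was -0.07 without 11AF, where the values ran from -4.59 to 3.70 for Svs4, and -0.75 without 18AF. Without 12AF it was -4.98 and the 8 values ran from -8.52 for Svs2 to -1.38 for Svs4. Leaving out 10AF, 16AF or 17AF gave -2.72 to -1.40. edgeR on recovered reads gave medians of 1.91 for KO and -4.36 for A537T at 10 weeks. At 30 weeks the WT libraries held 0 to 9 reads of each gene, so no fold is given.

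The composition of the reads of the 8 genes in A537T at 10 weeks differed from that in the 9 libraries with high levels. In those 9, Svs2 made up 52.9% to 63.7% of these reads, Svs5 20.9% to 25.6%, Pate4 11.3% to 14.3% and Svs4 1.50% to 8.10%. In the A537T libraries at 10 weeks, Svs2 made up 3.27%, 3.43% and 7.58%, while Svs4 made up 38.6%, 37.3% and 39.4% and Svs5 46.6%, 47.3% and 44.8%. Pate4 made up 10.8%, 11.4% and 7.95% there. Svs2 and Svs4 did not overlap between these 3 libraries and the other 9, and neither did Svs5, whereas Pate4 did.

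**Figure D2:**
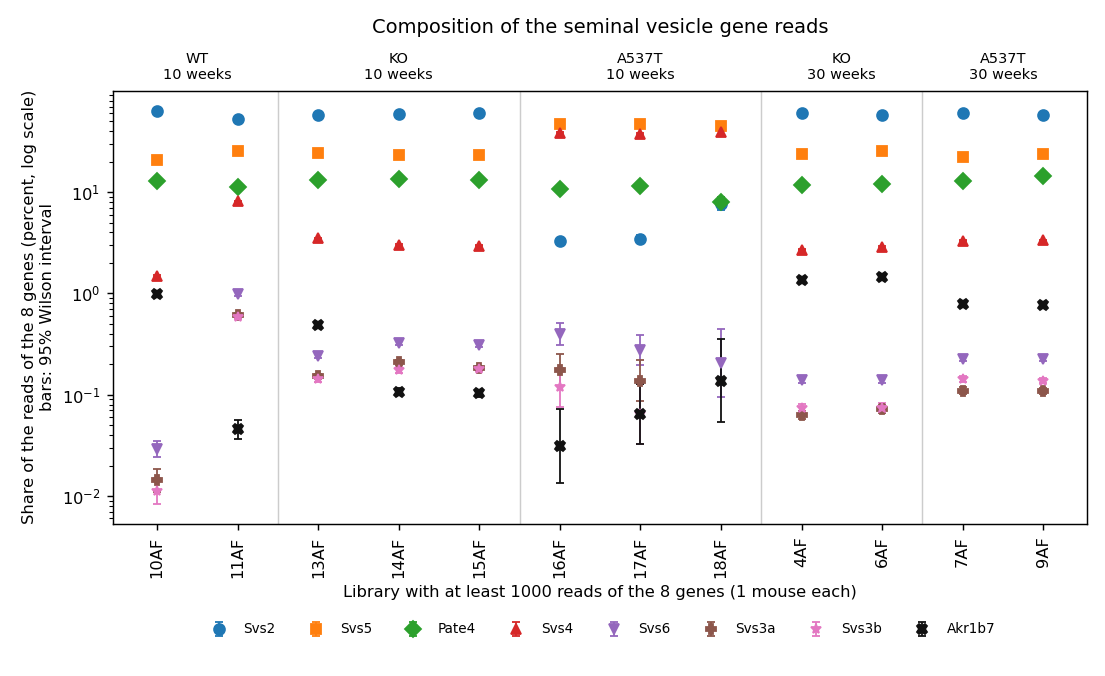
Share of each gene in the summed reads of the 8 genes, in percent on a log axis, for the 12 libraries with at least 1000 such reads; bars are 95% Wilson intervals, which cover counting error only, and genes with 0 reads are left out. The 3 A537T libraries at 10 weeks have Svs2 at 3.27% to 7.58% and Svs4 at 37.3% to 39.4%, and 10AF and 11AF differ in Svs3a, Svs3b, Svs6 and Akr1b7.

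Within 10 weeks, where KO and A537T each had 3 libraries with enough reads, the log2 ratio of each gene to the sum of the other members was compared. Svs2, Svs4, Svs5 and Pate4 had at least 20 reads in all 6 libraries, which gave 4 tests. The ratio of Svs2 was 0.53 ± 0.06 (SD, n = 3) in KO and -4.44 ± 0.72 (SD, n = 3) in A537T, a 31.3-fold difference. The ratio of Svs4 was -4.94 ± 0.13 in KO and -0.68 ± 0.06 in A537T, which is 19.2-fold in the other direction. Svs5 was -1.70 ± 0.05 against -0.22 ± 0.08 (2.79-fold), and Pate4 was -2.71 ± 0.01 against -3.18 ± 0.31 (1.39-fold). Each sum holds the other genes tested, so the 4 ratios are tied to each other. In RPM, Svs4 was itself lower in A537T (148 to 737) than in KO (1975 to 3322). So was Svs5, with 168 to 889 in A537T and 15337 to 23651 in KO. The groups did not overlap for any of the 4. The exact two-sided permutation p was 0.1 for each (0.1 after Benjamini-Hochberg adjustment over the 4), the smallest that 3 against 3 libraries can give. The genes were chosen with their levels in view and the 4 ratios are not independent, so nothing is read from these p-values. The direction for Pate4 depended on the reference, since its ratio to Svs2 alone was lower in KO by 3.33 on the log2 scale.

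Each of the 28 pairs of genes was then followed over the libraries that held at least 20 reads of both, which were 9 to 13 per pair. The SD of the log2 ratio over libraries was 1.54 in the median pair and ran from 0.20 for Svs3a with Svs6 to 3.38 for Svs2 with Svs4. Counting error alone gives an SD of 0.02 to 0.14 in these pairs. Differences between mice add to it, so an SD above this range does not by itself speak to the source of the reads. Without the A537T group at 10 weeks, a choice made after the values had been seen, the median was 1.39. Within 10 weeks the median was 1.80 over up to 9 libraries, where 12AF entered only for Svs2 with Pate4. Without the A537T group it was 1.76 at 10 weeks. Within 30 weeks it was 0.40 over 4 libraries, none of them WT, so the 2 ages are not compared.

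**Figure D3:**
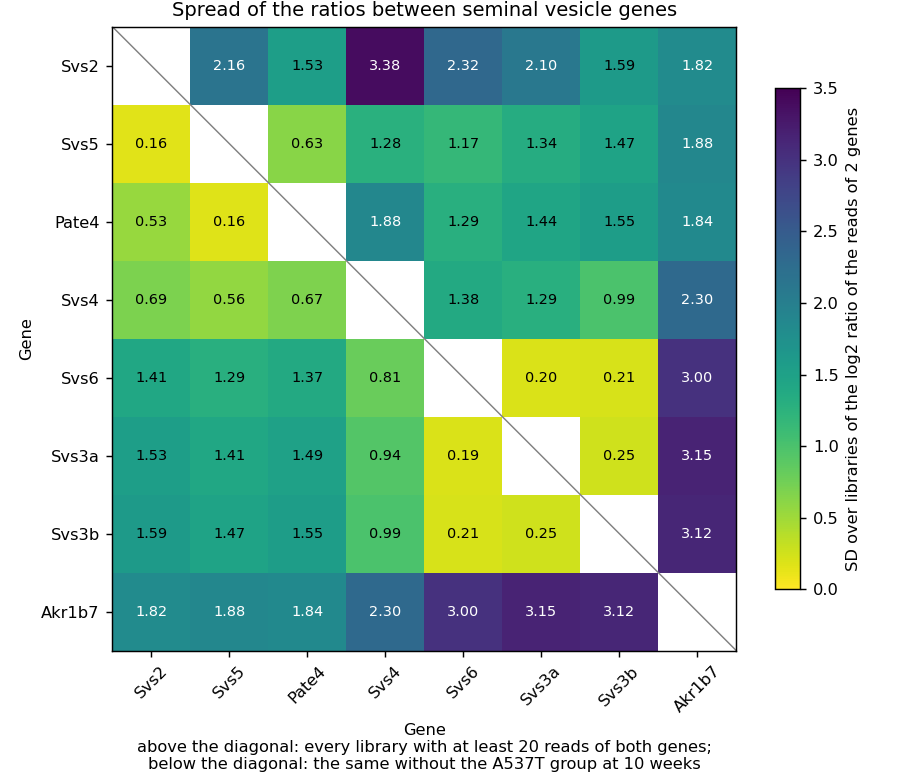
SD over libraries of the log2 ratio of the reads of 2 genes, for all 28 pairs; above the diagonal every library with at least 20 reads of both genes is used, and below it the A537T libraries at 10 weeks are left out. Below the diagonal Svs2 with Svs5 (0.16), Svs5 with Pate4 (0.16) and the pairs among Svs3a, Svs3b and Svs6 (0.19 to 0.25) are smallest, and the pairs of Akr1b7 with Svs3a, Svs3b and Svs6 (3.00 to 3.15) are largest.

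Svs2, Svs5 and Pate4 kept close to one ratio in the 9 libraries with high levels. Svs2 itself varied 6.70-fold there in RPM, while its ratio to Svs5 varied 1.47-fold, from 2.07 in 11AF to 3.05 in 10AF. The ratio of Svs5 to Pate4 varied 1.39-fold, from 1.62 to 2.26, again between 10AF and 11AF. In the A537T libraries at 10 weeks the ratio of Svs2 to Svs5 was 0.0702, 0.0726 and 0.169, and that of Svs5 to Pate4 was 4.33, 4.14 and 5.63.

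Svs4 stood apart from these 3 genes. Its ratio to Svs5 was 0.112 to 0.148 in 7 of the 9 libraries, 0.0717 in 10AF and 0.318 in 11AF. In the A537T libraries at 10 weeks it was 0.829, 0.788 and 0.879, which is above all 9 others. Among those 3 libraries the Svs4 to Svs5 ratio therefore varied less than their summed reads, which ran from 2917 to 16021.

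Svs3a, Svs3b and Svs6 kept close to one ratio among themselves, including in 10AF and 11AF, and did not follow the first 3 genes. Svs6 had 13.5 RPM in 10AF and 170 in 11AF, although Svs5 had 9784 in 10AF and 4444 in 11AF. The ratio of Svs5 to Svs6 was 722 in 10AF and 26.1 in 11AF, a 27.7-fold range over 11 libraries. The ratio of Svs6 to Svs3a stayed between 1.57 and 2.29 over the 10 libraries with enough reads. Svs5 and Svs6, with promoters identical at 92.0% of positions, had an SD of the log2 ratio of 1.17 over 11 libraries. Over the 9 libraries with high levels it was 1.29. Over the same 9, Svs3a and Svs3b, at 97.0%, had an SD of 0.25, with the sharing of reads between them noted above. These 2 pairs were picked for this difference, so it restates that choice.

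Akr1b7 had at least 20 reads only in the 9 libraries with high levels, and over these its log2 ratio to the sum of the other members had the largest SD of the 8 genes, 1.86. In its 7 pairs the SD was 1.82 to 3.15. Its share of the reads of the 8 genes was 0.994% in 10AF and 0.0454% in 11AF, 0.484%, 0.107% and 0.103% in KO at 10 weeks, 1.35% and 1.44% in the 2 high KO libraries at 30 weeks and 0.791% and 0.774% in those of A537T at 30 weeks. Against Svs3a it varied 929-fold over 9 libraries, with 69.3 reads of Akr1b7 per read of Svs3a in 10AF and 0.0747 in 11AF. All 4 high libraries at 30 weeks had a larger share of Akr1b7 than the 3 KO libraries at 10 weeks, and 10AF at 10 weeks lay between the 30-week values of the 2 genotypes.

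**Figure D4:**
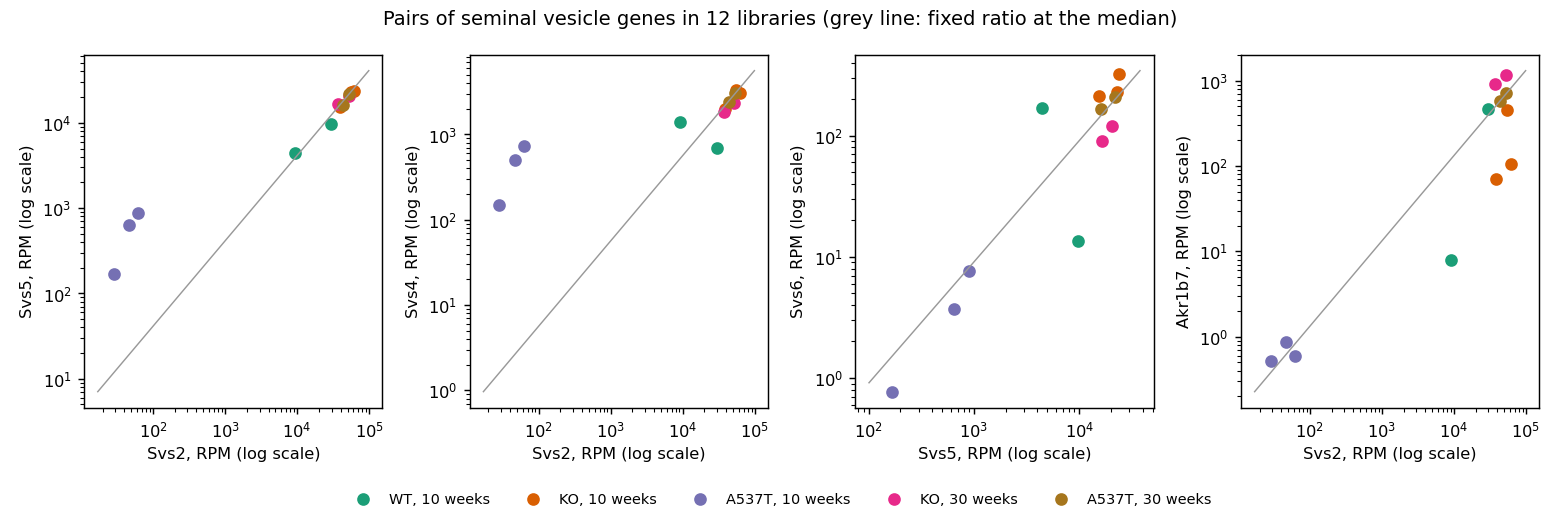
RPM of 4 pairs of genes in the 12 libraries with at least 1000 reads of the set, on log axes, with 1 point per library coloured by group; the grey line marks a fixed ratio at the median of the 12. Svs2 and Svs5 follow the line outside the A537T group at 10 weeks, Svs4 lies above it in that group, and 10AF and 11AF lie on opposite sides of it for Svs5 with Svs6.

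The 2 high WT libraries at 10 weeks, 10AF and 11AF, lay at opposite ends of the ratio in 21 of the 28 pairs once the A537T group at 10 weeks was left out. With all other libraries kept, the median SD over the 28 pairs was 1.31 without 10AF and 1.37 without 11AF. A chi-square statistic for equal composition, which is about 1 per degree of freedom under counting error alone, was 3949 per degree of freedom between 10AF and 11AF and 261 among the 3 KO libraries at 10 weeks. It was 13.01 among the 3 A537T libraries at 10 weeks, 114 between the 2 high KO libraries and 180 between the 2 high A537T libraries at 30 weeks. These values grow with depth, and they compare the libraries and not the genotypes.

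The 6 libraries with few reads allow only a coarse composition. In 12AF, Svs2 held 32 of 87 reads, or 36.8% (95% Wilson interval 27.4% to 47.3%), and Pate4 held 22, or 25.3% (17.3% to 35.3%). Both intervals lie outside the range of the 9 libraries with high levels. In 1AF, Svs2 held 4 of 34 reads (11.8%, 4.67% to 26.6%). Akr1b7 held 15 of 22 reads in 5AF (68.2%, 47.3% to 83.6%) and 7 of 14 in 8AF (50.0%, 26.8% to 73.2%), the 2 mutant libraries at 30 weeks with low levels, whereas the other 7 genes had at most 3 reads each there. With 3 reads taken as the limit that a count of 0 allows, a gene at 0 reads could have reached 0.267 to 0.457 RPM, depending on the library.

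Genes outside the set that kept a ratio to it were sought among the 11276 genes with at least 20 reads in each of the 12 libraries. The SD of the log2 ratio to the summed reads of the 8 genes was 2.89 for the median gene, with a 5th percentile of 2.62. The 10 smallest were Elf5 (0.66), Pfkfb3 (0.85), Cdo1 (0.98), Cd52 (0.98), Plau (1.05), Spink8 (1.11), Bpgm (1.12), Defb42 (1.16), Nefh (1.17) and Nr4a3 (1.32). Elf5, a transcription factor of secretory epithelia, had 3.60 to 229 RPM in the 12 libraries and 0.571 to 2.34 in the other 6. Cdo1, the cysteine dioxygenase of taurine synthesis, had 46.1 to 1750.3 and 4.62 to 18.4. Members were set against the sum of the other 7, which gave 0.25 for Pate4, 0.68 for Svs5, 2.00 for Svs4 and 2.27 for Svs2. That sum leaves out the gene itself, whereas genes outside the set were divided by all 8. The members are therefore not ranked against Elf5 or the other genes named.

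Over the 9 libraries without the A537T group at 10 weeks, a choice made after the values had been seen, the median gene of 11474 had an SD of 0.81. Cdo1 (0.07), Pou3f3 (0.08) and Elf5 (0.12) were then smallest. Against the sum of the other members, Svs5 gave 0.12, Pate4 0.12, Svs2 0.17 and Svs4 0.65, which are again not ranked against genes outside the set. Svs3a, Svs3b, Svs6 and Akr1b7 gave 1.35 to 1.86, all above the 95th percentile of 1.12. Each of these held at most 1.44% of the reads of the set in these libraries, so leaving it out hardly changes the sum. Pou3f3, a POU-domain transcription factor, had 11.5 to 69.1 RPM in these 9 libraries and 0 in the 6 libraries with few reads of the set.

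Further seminal vesicle genes were set against single members. Svs1, an amine oxidase-like secretory protein, had an SD of the log2 ratio to Svs6 of 0.26 over 11 libraries and of 2.27 to Svs2. Over the 9 libraries with high levels these were 0.26 and 1.39. For Serpine2, a protease inhibitor that is also widely expressed, the result depended on the A537T group at 10 weeks. With it, the SD was 3.21 to Svs2 and 0.73 to Svs4 over 12 libraries and 1.47 to Svs6 over 11. Over the 9 libraries it was 0.16 to Svs2, 0.62 to Svs4 and 1.35 to Svs6. Spinkl, a Kazal-type inhibitor-like protein that binds sperm, had 86.3, 62.3 and 22.5 RPM in A537T at 10 weeks. In KO at 10 weeks it had 89.3, 21.4 and 30.9, which overlap. The 6 libraries with few reads of the set had at most 0.562. Svs1 had 0 to 6.43 RPM in A537T and 196 to 307 in KO at 10 weeks, and Serpine2 63.1 to 68.2 and 439 to 684. Ceacam10, Sva, Wfdc15b and Ltf, named after their values had been seen, also lay lower in A537T without overlap. So did Pate1 and Pate2, at low levels. Spink1 lay higher in A537T without overlap, and Wfdc3 and Pip overlapped. Of 14 such genes listed, 13 were in the tables. Their summed level followed Spink1, which prostate also expresses, and at 10 weeks the A537T libraries had 11387 to 14675, the KO libraries 1387 to 6214 and the WT libraries 5130.4 to 24926 RPM.

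**Figure D5:**
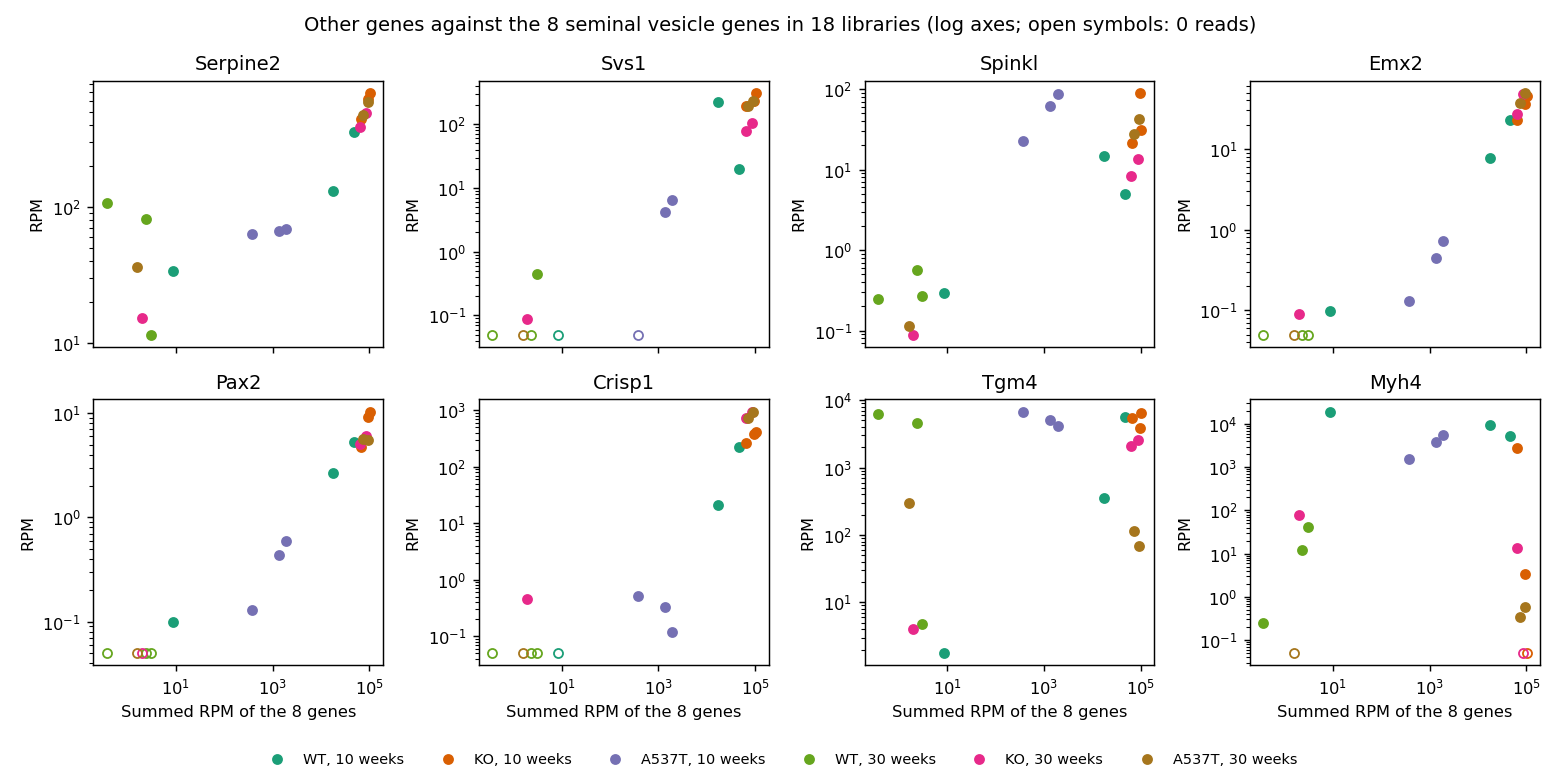
RPM of 8 genes from the marker lists against the summed RPM of the 8 members, in 18 libraries on log axes, with 1 point per library coloured by group and open symbols for 0 reads. Emx2 and Pax2 reach 2.64 or more only in the 9 libraries with high levels of the set. Spinkl overlaps between A537T and KO at 10 weeks, whereas Svs1 and Serpine2 are lower in A537T. Tgm4 and Myh4 do not follow the set.

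Transcription factors of the Wolffian duct, the embryonic source of seminal vesicle, vas deferens and epididymis, were read beside the set. Emx2 had 7.72 to 49.2 RPM in the 9 libraries with high levels, 0.715, 0.439 and 0.129 in A537T at 10 weeks and at most 0.0985 in the other 6. Pax2, named like Lhx1 and Spinkl after its values had been seen, had 2.64 to 10.4, then 0.595, 0.439 and 0.129, and at most 0.0985. Hoxa10 and Hoxa9, which prostate also expresses, were between 3.84 and 20.8 in all 18 libraries, and Lhx1 was at 0 in all. The ratio of Emx2 to Svs2 varied 1.59-fold over the 9 libraries.

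Markers of the neighbouring tissues varied as well. Of 12 genes of the epididymis and vas deferens, 6 were at 0 in every library, among them Lcn8, Lcn9, Spag11b and Cst8. Crisp1 was the highest, with 222, 21.3 and 0 RPM in WT at 10 weeks. It had 0.119 to 0.514 in A537T and 267 to 413 in KO at that age, and 720 to 955 in the 4 high libraries at 30 weeks. Adam7 reached 84.0 in WT at 30 weeks and at most 0.304 at 10 weeks. The part of these tissues in the values of the set was not tested.

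Prostate genes were read in the same way. Tgm4, the transglutaminase of the plug and a product of the anterior prostate, had 4108 to 6769 RPM in A537T at 10 weeks and 3839 to 6521 in KO, beside 0.0375% to 0.191% and 6.54% to 10.3% of all reads for the set. In WT at 30 weeks Tgm4 had 4.71, 6329.9 and 4567, beside 34, 3 and 21 reads of the set. Summed ventral, lateral and dorsolateral secretory genes, led by Sbp, had 66483 to 88669 RPM in A537T at 10 weeks and 4185 to 33099 in KO.

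Marker genes of muscle and urothelium differed between libraries too. Summed skeletal muscle genes had 12287 to 43814 RPM in WT, 3737 to 12632 in A537T and 256 to 6429 in KO at 10 weeks, whereas all 9 libraries at 30 weeks lay between 73.3 and 300.1. Urothelial genes were highest in 18AF (454), the A537T library with the fewest reads of the set among the 3, where smooth muscle genes (8573) were highest too. Their part in the results was not tested.

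Elac2 itself had 15.5 to 16.7 RPM in WT, 19.0 to 20.2 in A537T and 13.7 to 16.1 in KO at 10 weeks, so that KO overlapped WT and A537T lay above both. At 30 weeks the ranges were 16.4 to 22.0, 12.2 to 22.4 and 10.3 to 18.4 in the same order, and all overlapped. The KO deletion takes 1 exon and A537T is a substitution, so reads summed over the gene check neither. Whether reads of the set came from seminal vesicle tissue or from the prostate lobes was not tested, and in bulk RNA the 2 cannot be told apart for any single gene.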

How the data were processed

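Total RNA of the ventral and lateral lobes was sequenced from 18 mice, 3 in each of 6 groups. Per the labels and the study's methods, the authors trimmed reads with Trim Galore 0.4.1 and cutadapt 1.18, aligned them with STAR 2.7.3a to GRCm38.p6, quantified genes with Salmon and scaled them with DESeq2 1.26. The authors deposited signal values, each a gene count divided by the size factor of its library, in 4 tables that each hold 1 mutant group and the WT mice of its age. Columns were assigned to groups through the table means and the WT columns common to both tables of 1 age, and to no individual mouse. Tables of the authors' own comparisons (mean, shrunken log2 fold change, its error and s-value) were not used, and no per-sample column was left out (0).

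Values were whole multiples of 1 read in at least 99.99% of genes per library, within 0.1 of a whole number, so reads were recovered. The step of 4 columns was less certain. For the same WT library, reads recovered from the 2 tables of its age differed in 20.3% to 24.3% of genes, so single WT counts are not exact. WT reads came from the KO tables. Totals were 6569642 to 11225281 reads, and p-values measure the spread between mice. Members and lists were chosen with earlier results of these data known. Ratios used libraries with at least 20 reads of both genes, and sums at least 1000 reads. Exact permutation tests used scipy, and genome-wide fits used limma on log2(normalised count + 1) for genes with a mean of at least 10, with Benjamini-Hochberg adjustment; edgeR and DESeq2 were run on recovered reads. The named genes are the 8 members, up to 4 genes with the highest mean per list, and the 10 others with the smallest SD of the log2 ratio to the summed members, with exceptions stated where they occur. Scripts were tested on simulated data. Of 55469 identifiers, 55107 had a symbol. Promoters are from RefSeq (7 of 8 members matched), and transcripts and lengths from GENCODE. Intervals and the limit of 3 reads cover counting error only. The values of 1 further gene list are not reported here.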

Additional observations from a re-analysis of the deposited data

How the results depend on the processing

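The spread of the ratios had a median SD of the log2 ratio of 1.54 and a leave-one-out error of 0.33. It moved by less than this error under the other alternatives, from 1.29 with at least 100 reads to 1.82 with Svs3a and Svs3b summed. When single libraries were left out it ran from 1.31 to 1.62. These runs set the error itself, so their lying within it is not a separate check. For KO against A537T at 10 weeks the direction held for Svs2, Svs4 and Svs5 in each alternative run. For Pate4 it turned, to -3.33, when the ratio was taken to Svs2 alone. The ratio of Svs2 to the other members itself differed 31.3-fold between KO and A537T. Leaving out 1 library gave 4.74 to 5.38 for Svs2, -4.34 to -4.22 for Svs4, -1.52 to -1.45 for Svs5 and 0.30 to 0.59 for Pate4. A centred log ratio over all 8 genes could not be taken because 18AF held 0 reads of Svs3a and Svs3b, so 4 genes were used, a choice made after seeing the data.

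Of the counts of genes changed, all 0 in the limma fit, DESeq2 gave 715 for KO and 90 for A537T at 10 weeks and 285 and 476 at 30 weeks. A fit without the mean trend gave 1 and 2 at 10 weeks, and a minimum mean of 1 gave 2 for A537T. Leaving out 1 library gave 0 to 2886 (without 10AF) and 0 to 50 (without 10AF) at 10 weeks and 0 to 944 (without 5AF) and 0 to 1224 (without 8AF) at 30 weeks. In these fits the sign of 5 of the 8 members, Svs3a, Svs4, Svs5, Svs6 and Pate4, turned for A537T at 10 weeks under at least 1 alternative. The edgeR and DESeq2 fits were added after seeing the data. No paired analysis was possible because the columns carry no replicate number.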
